A study of Mus musculus with 32 samples.

Results

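Expression of cholesterol synthesis genes was followed in 32 whole kidneys of lupus-prone mice (26 of the NZB/W hybrid and 6 of the NZM2410 strain). The set lists 8 genes by symbol, 7 targets of the transcription factor SREBP2 and the gene of SREBP2 itself. The rule takes the genes by symbol and not by a cut on their values, but the set was drawn up with earlier results of these data known. Of the 8 genes, 5 carried a named probe set among the 15780 named genes that were tested: Sqle, Fdft1, Lss, Insig1 and Srebf2. Hmgcs1, Idi1 and Fdps were not analysed here. On GRCm38.p6 the measured genes lie at chr15:59315092-59331193 (Sqle), chr14:63145150-63181687 (Fdft1), chr10:76531565-76557139 (Lss), chr5:28071412-28078662 (Insig1) and chr15:82147269-82205379 (Srebf2), and the deposited table gives 1 value per gene and kidney. All 5 measured genes were among the 10520 brighter genes, those with a mean log2 value above 6.07.

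NZB/W mice are the F1 hybrid of the NZB and NZW strains and NZM2410 is an inbred strain derived from the same parents; both develop immune complex nephritis, and the study describes its NZB/W mice as female. A group of 7 NZB/W kidneys was taken at 30 weeks of age, without treatment and without proteinuria. Another 8 NZB/W kidneys came from mice in early remission and 6 from mice in late remission after triple therapy with CTX (cyclophosphamide), CTLA4Ig and anti-CD154, which block T cell costimulation. A further 5 NZB/W kidneys were from the late remission that followed CTLA4Ig and Ad-TACI-Ig, an adenovirus that encodes a soluble receptor for the B cell factors BAFF and APRIL. The NZM2410 kidneys were all from mice in remission after Ad-BAFF-R-Ig, an adenovirus that encodes a soluble BAFF receptor. Ages of the treated mice are not given in the labels, no untreated nephritic kidney is analysed here, and the kidneys were perfused with saline before harvest. Whole kidney holds many cell types, and fewer cells of a type cannot be told apart from less RNA per cell.

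SREBP2 is made as a membrane protein of the endoplasmic reticulum, where its partner SCAP senses cholesterol. When sterols are low, SCAP carries SREBP2 to the Golgi apparatus, proteases release its active part, and this part enters the nucleus and switches on the genes of the mevalonate and sterol pathways. INSIG proteins hold SCAP back when sterols are high, and Insig1 is itself a target of SREBP2, as is Srebf2, so the pathway regulates its own parts. Fdft1 encodes squalene synthase, the first enzyme committed to sterols, Sqle encodes squalene epoxidase, which adds the oxygen, and Lss encodes lanosterol synthase, which closes the sterol rings. Tubule cells of the kidney both make cholesterol and take it up.

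The upstream sequences of 3 measured members are shown because SREBP2 acts through short motifs near the start of its targets, and that of Msmo1, a sterol C4-methyl oxidase, is shown because its values followed those of the members most closely (described with the co-variation). The 250 bases before the RefSeq start are given 5′ to 3′ on the strand of the gene (GRCm38.p6), namely chr5:28071162-28071411 (plus strand) for Insig1, chr10:76531355-76531604 (plus) for Lss, chr15:82147019-82147268 (plus) for Srebf2 and chr8:64733579-64733828 (minus) for Msmo1. Capitals mark the sterol regulatory element TCACNCCA and the NF-Y box CCAAT on either strand.
Insig1: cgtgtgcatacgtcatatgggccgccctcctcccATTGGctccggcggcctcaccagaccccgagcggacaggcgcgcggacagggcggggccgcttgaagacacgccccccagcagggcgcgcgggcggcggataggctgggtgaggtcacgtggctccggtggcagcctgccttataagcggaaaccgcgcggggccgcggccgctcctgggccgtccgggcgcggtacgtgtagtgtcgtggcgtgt
Lss: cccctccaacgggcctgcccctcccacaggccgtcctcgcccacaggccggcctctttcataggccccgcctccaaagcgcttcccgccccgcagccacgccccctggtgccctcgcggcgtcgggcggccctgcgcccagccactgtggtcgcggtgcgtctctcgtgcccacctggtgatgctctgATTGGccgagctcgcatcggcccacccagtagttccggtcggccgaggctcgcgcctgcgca
Srebf2: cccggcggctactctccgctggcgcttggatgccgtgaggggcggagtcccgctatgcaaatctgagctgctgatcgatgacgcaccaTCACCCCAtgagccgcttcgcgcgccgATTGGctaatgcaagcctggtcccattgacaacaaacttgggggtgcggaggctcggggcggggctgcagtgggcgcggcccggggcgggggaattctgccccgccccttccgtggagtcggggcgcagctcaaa
Msmo1: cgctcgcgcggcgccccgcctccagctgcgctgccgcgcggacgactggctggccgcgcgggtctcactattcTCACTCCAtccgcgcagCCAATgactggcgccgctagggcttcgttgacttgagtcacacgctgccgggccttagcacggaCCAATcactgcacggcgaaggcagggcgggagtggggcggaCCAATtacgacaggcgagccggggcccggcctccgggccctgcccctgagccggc
TCACNCCA was present in the window of Srebf2, as TCACCCCA at bases -162 to -155 before the start, and in that of Msmo1, as TCACTCCA at bases -177 to -170. Windows of 300 bases, which also take in the first 50 transcribed bases, were at hand for 5 of the 8 listed genes, the measured 3 with Idi1 and Hmgcs1. The element was found in 2 of these 5, Srebf2 and Hmgcs1, and in 5.0% of 27025 genes with a window. Among the other sterol synthesis enzymes it was found in 1 of 13, Msmo1. The NF-Y box CCAAT was found in 5 of 5 windows and in 12 of 13 of the other sterol synthesis enzymes, compared with 41.1% of all genes. The GC box GGGCGG was likewise found in 5 of 5 and in 12 of 13, compared with 38.2% of all genes. The E-box CACGTG was found in 1 of 5, at bases -101 to -96 of Insig1, and in 3 of 13, compared with 8.1% of all genes. These are matches of letters and not measured sites. The motifs do not overlap in the windows shown, and Lss and Insig1 held no TCACNCCA in theirs.

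All values below are log2 expression values (RMA) of the deposited table, and a difference of 1 is a doubling. Between the kidneys of a group, Insig1 varied most, with an SD pooled over groups of 0.42, and 3.4% of the 10520 brighter genes had a larger one. The pooled SD was 0.32 for Sqle, 0.25 for Srebf2, 0.22 for Lss and 0.21 for Fdft1, compared with a median of 0.15 over those genes. In each of the 5 members the spread between kidneys of a group was therefore above that of the typical gene. The table has a further property that bears on the groups. The mean of the late triple therapy group equalled the pooled mean of the 12 kidneys at 30 weeks and after TACI-Ig, to within 0.0074 for the members and 0.026 for every gene. The level of that group is thus not a free measurement, and its differences from the 30-week and TACI-Ig groups follow, within that tolerance, from the difference between those 2. The arrays were batch-corrected by the authors in batches that are not named, and the part of that step in this was not tested.

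Insig1, which codes for the sterol-sensing brake on SREBP2, ranged from 6.52 to 8.005 at 30 weeks (median 7.16, n = 7). In early remission after triple therapy it ranged from 6.99 to 8.14 (median 7.81, n = 8). After TACI-Ig and CTLA4Ig the 5 kidneys gave 6.43, 7.46, 6.70, 7.64 and 6.67. These ranges overlapped, and 3 of the 8 early kidneys lay above the highest 30-week kidney. In late remission after triple therapy Insig1 ranged from 6.77 to 7.49 (median 7.06, n = 6). In NZM2410 kidneys it ranged from 7.06 to 7.96 (median 7.52, n = 6). The mean was lowest after TACI-Ig (6.98 ± 0.53, n = 5), followed by late triple therapy (7.11 ± 0.29, n = 6), 30 weeks (7.197 ± 0.51, n = 7) and NZM2410 (7.50 ± 0.30, n = 6), and highest in early remission (7.76 ± 0.40, n = 8), with errors as SD. Neighbours in this order differed by less than the larger of their SD.

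Fdft1, which codes for squalene synthase, ranged from 7.998 to 8.73 at 30 weeks (median 8.36, n = 7). In early remission it ranged from 8.47 to 9.04 (median 8.68, n = 8). After TACI-Ig and CTLA4Ig it was 8.76, 8.49, 8.71, 8.65 and 8.44. Every early kidney exceeded the 30-week mean of 8.40, but the ranges overlapped. It ranged from 8.22 to 8.79 in late remission after triple therapy (median 8.50, n = 6) and from 8.09 to 8.55 in NZM2410 kidneys (median 8.25, n = 6). Its order of means was NZM2410 (8.29 ± 0.17, n = 6), 30 weeks (8.40 ± 0.27, n = 7), late triple therapy (8.49 ± 0.23, n = 6), TACI-Ig (8.61 ± 0.14, n = 5) and early remission (8.71 ± 0.20, n = 8), with errors as SD, and neighbours again differed by less than their SD.

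The remaining 3 members had group means within a narrow band. Srebf2 had means between 8.31 ± 0.41 (SD, n = 5) after TACI-Ig and 8.50 ± 0.26 (SD, n = 8) in early remission. The 5 kidneys of the TACI-Ig group fell into 2 levels for Srebf2, with 7.89 and 7.85 in replicates 1 and 5 and 8.53, 8.58 and 8.71 in the others. Sqle had means between 9.28 ± 0.19 (SD, n = 6) in NZM2410 kidneys and 9.47 ± 0.35 (SD, n = 5) after TACI-Ig. Lss had means between 7.81 ± 0.15 (SD, n = 6) in NZM2410 kidneys and 8.11 ± 0.24 (SD, n = 8) in early remission.

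**Figure D1:**
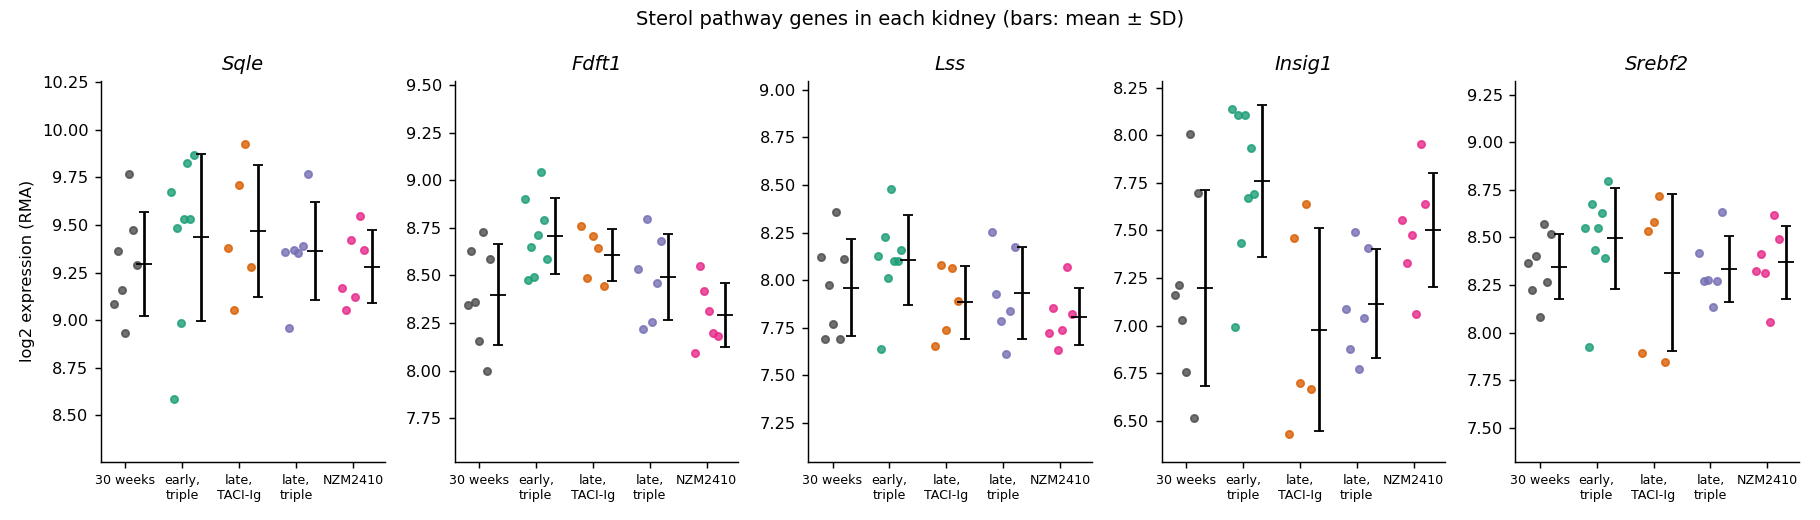
Log2 expression (RMA, y axis) of the 5 measured genes in each kidney, by group (x axis), where a point is a kidney and a bar shows the group mean and SD; each panel spans 2 log2 units and starts above 0. Insig1 has the widest spread, from 6.43 to 8.14 over all kidneys, and the group ranges overlap in every panel.

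The comparison of early remission with 30 weeks asks how kidneys that had just entered remission differ from kidneys before proteinuria. All 5 members had higher means in early remission, but none passed the threshold (0 of 5, with 0% of all 15780 genes called by limma at a Benjamini-Hochberg adjusted p under 0.05). The Insig1 difference was 0.56 (SE 0.21, 95% confidence interval 0.12 to 1.005, limma adjusted p = 0.449), with 7 of 8 early kidneys above the 30-week mean. Fdft1 differed by 0.31 (SE 0.11, 95% confidence interval 0.07 to 0.54, limma adjusted p = 0.428), with 8 of 8 kidneys above that mean. Srebf2, Lss and Sqle differed by 0.15, 0.15 and 0.14, each with a confidence interval that included 0. The median difference of the members was 0.15 and that of all genes 0.02. The members varied together between kidneys (described with the co-variation), so their shared direction is not 5 separate observations. At an unadjusted p under 0.05, limma gave 855 genes as higher and 531 as lower, 8.78% of all, and both Insig1 and Fdft1 were among the higher. No member had groups that did not overlap, compared with 0.133% of all genes.

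The other enzymes of the pathway were close in size. Of 12 other sterol synthesis enzymes, 11 had higher means in early remission and 0 passed the test, with a median difference of 0.18. Cyp51, the lanosterol demethylase, differed by 0.37 (limma adjusted p = 0.389) and Msmo1 by 0.42 (adjusted p = 0.721). Of 12 fatty acid synthesis genes, which are governed mainly by the related factor SREBP1, 11 had higher means and 0 passed, with a median of 0.21. Srebf1, which codes for SREBP1, differed by 0.41 (limma adjusted p = 0.591). The SREBP processing genes other than Srebf1, among them Scap and the site proteases Mbtps1 and Mbtps2, had differences between -0.10 and 0.02. Of 6 genes of LXR and cholesterol efflux, 3 had higher and 3 had lower means, with a median of -0.01. The lowest of them was Abca1, a cholesterol exporter that sterols induce through LXR. Abca1 differed by -0.39 (limma adjusted p = 0.388), and 0 of 8 early kidneys lay above the 30-week mean. These listed genes, none of which passed, were picked for naming after their values were seen.

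The adrenal cortex genes moved in the same comparison, from a mean of 7.57 ± 1.33 (SD, n = 7) at 30 weeks to 6.86 ± 1.20 (SD, n = 8) in early remission. With that mean as a covariate the difference was 0.49 for Insig1 (limma adjusted p = 0.668) and 0.28 for Fdft1 (limma adjusted p = 0.633). Genes of the loop, distal tubule and collecting duct were at 12.24 ± 0.17 (SD, n = 8) in the early kidneys against 12.08 ± 0.11 (SD, n = 7) at 30 weeks, and their part in the differences was not tested.

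Late remission was then set against early remission after the same triple therapy. All 5 members had lower means in late remission, and 0 of 5 passed the threshold, compared with 0.0697% of all genes (0 higher and 11 lower). Insig1 differed by -0.64 (SE 0.17, 95% confidence interval -1.004 to -0.28, limma adjusted p = 0.296), with 0 of 6 late kidneys above the early mean, and ranked 80 of 15780 genes by p. Without early-remission replicate 2, whose Insig1 value of 6.99 was the lowest of its group, the difference was -0.75 (limma adjusted p = 0.0431). This was the only 1 of 14 kidneys whose removal took Insig1 past the threshold. Leaving out the lowest kidney of the higher group widens the difference by itself. Fdft1 differed by -0.21, Lss by -0.17, Srebf2 by -0.16 and Sqle by -0.07, each with a confidence interval that included 0. The median was -0.17 for the members and -0.01 for all genes. No member had groups that did not overlap, compared with 0.253% of all genes.

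Among the other sterol synthesis enzymes, 11 of 12 had lower means in late than in early remission and 0 passed, with a median of -0.22. Dhcr7, which catalyses the last step to cholesterol, differed by -0.33 (limma adjusted p = 0.522). All 12 fatty acid synthesis genes had lower means and 0 passed, with a median of -0.30. Acss2, the cytosolic acetyl-CoA synthetase, named like Dhcr7 after its value was seen, differed by -0.33 (limma adjusted p = 0.102), with 0 of 6 late kidneys above the early mean. This comparison and that of early remission with 30 weeks share the 8 early kidneys. Many of these genes varied together between kidneys, so in both comparisons the counts of genes in a direction are not counts of separate observations. Since the late triple therapy mean equals the pooled mean of the 30-week and TACI-Ig kidneys, these differences are those of the 12 kidneys from the early ones. They do not measure a change from early to late remission.

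Markers of other cells differed in the same comparison, with 0 genes called. All 7 proximal tubule genes had lower means in late remission (median difference -0.25), and their mean level ranged from 11.49 to 11.68 in late against 11.48 to 11.99 in early kidneys. All 5 genes of the loop, distal tubule and collecting duct also had lower means (median -0.10). All 8 macrophage genes (median 0.16) and all 5 proliferation genes (median 0.24) had higher means. The proximal tubule median was of the same order as that of the sterol enzymes, and the part of these markers in the member differences was not tested.

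No member was called between a late-remission group and 30 weeks. After TACI-Ig and CTLA4Ig, 0 of 5 members and 0% of all genes were called against 30 weeks (before adjustment, p was under 0.05 for 1682 genes with a higher mean and 1526 with a lower one). That 0% rested on a single kidney, since 1309 genes were called without TACI-Ig replicate 2, of which 0 were members. The member differences ran from -0.22 for Insig1 (95% confidence interval -0.78 to 0.34) to 0.21 for Fdft1 (95% confidence interval -0.05 to 0.46). For late remission after triple therapy against 30 weeks the comparison is no test of the treatment, because the mean of the group is set by the 30-week and TACI-Ig kidneys. Its values are therefore given only as a description, with member differences from -0.08 for Insig1 to 0.09 for Fdft1, compared with -0.22 and 0.21 for TACI-Ig against 30 weeks. The fit called 0 of 5 members and 0% of all genes (before adjustment, p was under 0.05 for 0.292% of genes, 9 with a higher mean and 37 with a lower one). No member had groups that did not overlap in either comparison, compared with 0.798% of all genes after TACI-Ig and 0% after triple therapy.

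The same holds between the 2 late-remission treatments, where each difference is set by that between 30 weeks and TACI-Ig. The members differed by -0.12 (Fdft1) to 0.14 (Insig1), and 0 of 5 were called, compared with 0.076% of all genes (12 higher after triple therapy and 0 lower). None of the members had groups that did not overlap, compared with 0.114% of all genes. The calls among the listed genes are given as a description of the table and not as a difference between treatments. They included Scarb1, the HDL receptor (0.57, limma adjusted p = 0.0297), and 5 of 9 adrenal cortex genes, among them Star (1.75, limma adjusted p = 5.82e-08), which carries cholesterol into mitochondria for steroid synthesis. Scarb1 was 8.10 ± 0.67 (SD, n = 7) at 30 weeks, 7.12 ± 0.11 (SD, n = 5) after TACI-Ig and 7.69 ± 0.17 (SD, n = 6) after triple therapy. The mean of the 9 adrenal genes was 7.57 ± 1.33 (SD, n = 7), 5.47 ± 0.08 (SD, n = 5) and 6.70 ± 0.12 (SD, n = 6) in the same order. With the adrenal mean as a covariate, or in a joint fit of all 5 groups, 0 genes were called by limma in this comparison.

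**Figure D2:**
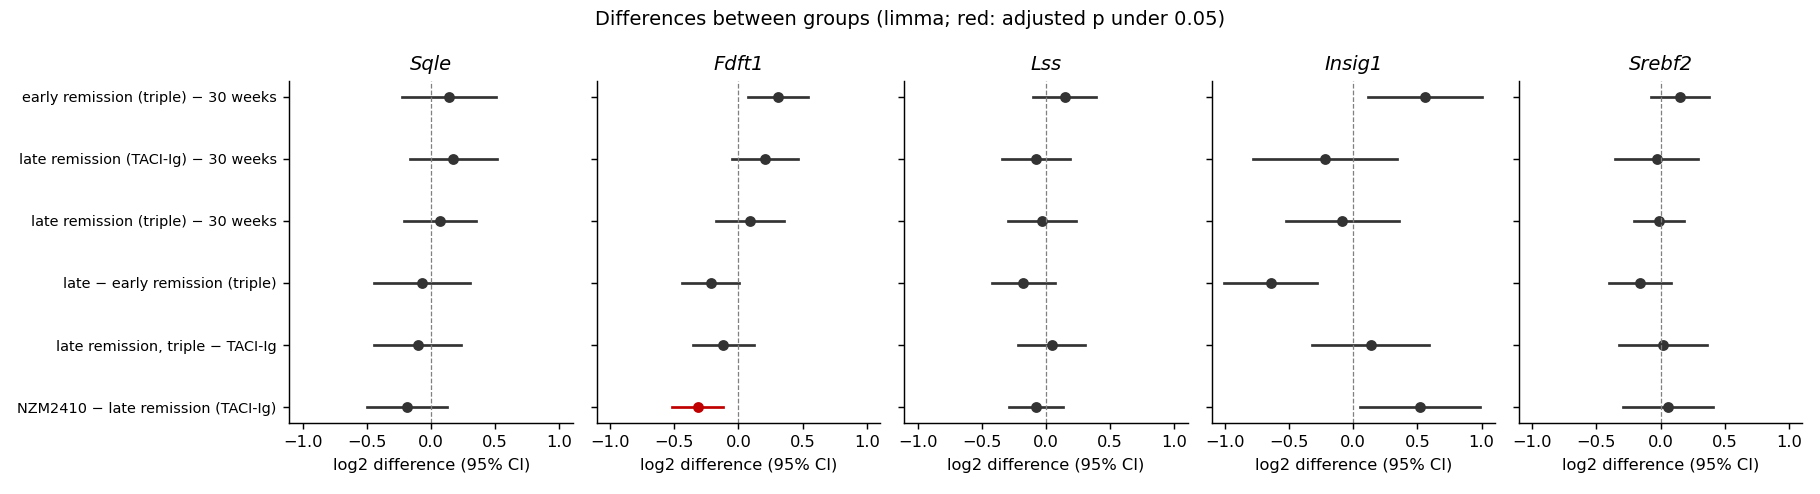
Log2 difference between group means (x axis) of each gene in the 6 comparisons (y axis), with points for the difference and lines for the 95% confidence interval from limma; red marks an adjusted p under 0.05. The only red point is Fdft1 in NZM2410 remission against TACI-Ig (-0.32), and Insig1 shows the widest intervals.

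NZM2410 kidneys in remission were compared with the NZB/W kidneys of the TACI-Ig group, where strain and treatment cannot be told apart. Here 59.5% of all genes were called (4513 higher and 4875 lower), so a call carries little about a gene. Of the members, 1 of 5 was called. Fdft1 was lower in NZM2410 by 0.32 on the log2 scale (8.29 against 8.61, SE 0.09, limma adjusted p = 0.00948), with 0 of 6 NZM2410 kidneys above the TACI-Ig mean. Insig1 was 0.52 higher on average (SE 0.22, limma adjusted p = 0.0521), with 6 of 6 kidneys above that mean. Of 11 fits with 1 kidney left out, Insig1 passed the threshold in 3. These were without TACI-Ig replicate 2 (limma adjusted p = 0.0226), TACI-Ig replicate 4 (0.0100) or NZM2410 replicate 4 (0.0309). For Insig1 those TACI-Ig kidneys were the highest of their group and that NZM2410 kidney the lowest, so leaving 1 out widens the difference by itself. No member had groups that did not overlap, compared with 38.5% of all genes. The loop, distal tubule and collecting duct genes had a mean of 12.73 ± 0.05 (SD, n = 6) in NZM2410 and 12.19 ± 0.15 (SD, n = 5) in the TACI-Ig kidneys, and their part in the Fdft1 difference was not tested.

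The shares called of the sterol, SREBP and fatty acid lists (6 of 12, 3 of 7 and 6 of 12) were below the 59.5% of all genes, so the counts that follow describe the genes and set no list apart. Of the 12 other enzymes, 5 were higher in NZM2410 kidneys (Pmvk, Cyp51, Msmo1, Ebp and Sc5d), 1 was lower (Hsd17b7) and 6 did not pass. Sc5d, the sterol C5-desaturase near the end of the pathway, had the largest difference of the list. It ranged from 8.68 to 8.88 in NZM2410 kidneys and from 7.45 to 8.17 after TACI-Ig, without overlap, a difference of 0.97 (SE 0.12, limma adjusted p = 1.97e-05). Among 7 SREBP processing genes and relatives, 3 were higher: Mbtps1, the site-1 protease that cuts SREBP (0.85), Stard4, a cholesterol carrier (0.75), and Insig2, the relative of Insig1 (0.51). Of 12 fatty acid synthesis genes, 4 were higher (Scd2, Elovl6, Fads2 and Gpam) and 2 were lower (Fasn and Acss2). Fat tissue also expresses these genes, and all 4 adipose markers measured had lower means in NZM2410 (3 called, median -1.68, list mean 5.36 ± 1.04 against 7.02 ± 0.89, SD, n = 6 and 5). All 4 lymphocyte genes had lower means as well (2 called, median -0.88), and 3 of 7 proximal tubule genes were higher. The part of these markers in the gene differences was not tested. Of 6 genes of LXR and cholesterol efflux, 3 were higher and 2 were lower, compared with 59.5% of all genes called. Their differences ran from -0.71 to 1.11, and the highest was that of Abca1 (limma adjusted p = 0.000635). Pmvk, Cyp51, Ebp, Hsd17b7, Mbtps1, Stard4, Insig2, Elovl6, Fads2, Gpam and Acss2 were named after their values were seen.

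Within groups the members varied together from kidney to kidney. With each group's mean removed, all 10 pairs of members correlated positively over the 32 kidneys, with a mean Pearson r of 0.53 (lowest 0.30, highest 0.75). An r above 0.5 was found in 5 of 10 pairs, compared with 2.69% of the 124496310 pairs of all named genes, whose median r was 0.0. Those pairs take in dimmer and less variable genes than the members, and no share was computed for genes like them. The highest were Lss with Insig1 (r = 0.75, rho = 0.71), Insig1 with Srebf2 (r = 0.72, rho = 0.68), Lss with Srebf2 (r = 0.68, rho = 0.73) and Sqle with Srebf2 (r = 0.66, rho = 0.61). Two-sided permutation of kidneys within groups gave p = 1e-05 for r of Lss with Insig1, the smallest that 100000 permutations can give, and p = 4e-05, 6e-05 and 0.00039 for the others in that order. For rho the permutation p was 9e-05, 0.00022, 6e-05 and 0.00084. Over the family of 10 pairs, the adjusted p for r was 0.0001, 0.0002, 0.0002 and 0.000975, and that for rho was 0.00045, 0.000733, 0.00045 and 0.0021. Without the 2 kidneys farthest from the median of the first gene, these 4 pairs gave r of 0.65, 0.66, 0.59 and 0.57. By r the weakest pairs both held Fdft1, with 0.30 to Lss (rho = 0.26) and 0.30 to Srebf2 (rho = 0.32). Permutation p for r and rho was 0.145 and 0.19 in the first and 0.0797 and 0.0808 in the other. Sqle with Lss was about as weak by rho (r = 0.42, rho = 0.31, permutation p = 0.0327 and 0.106). Without the 2 kidneys farthest from the median of Sqle it gave r = 0.24, the lowest of the 10 pairs.

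**Figure D3:**
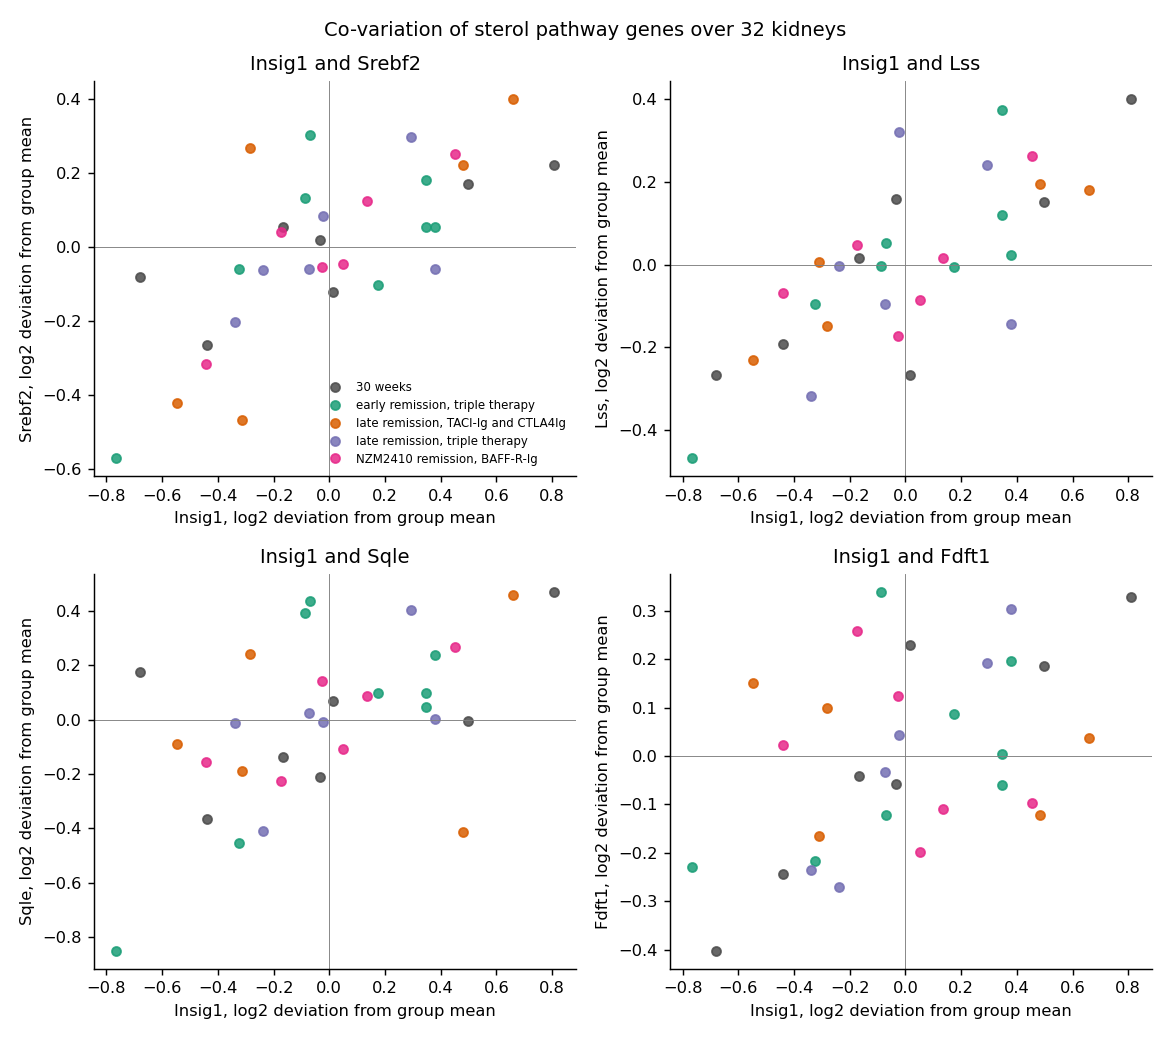
Deviation of Srebf2, Lss, Sqle and Fdft1 from the group mean (log2, y axes) against that of Insig1 (log2, x axes), with a point for each of 32 kidneys coloured by group. Points run along the diagonal for Srebf2 (r = 0.72) and Lss (r = 0.75) and scatter more for Sqle (r = 0.53) and Fdft1 (r = 0.49).

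The co-variation was present in the NZB/W kidneys at 30 weeks (mean r over the 10 pairs 0.66, n = 7 kidneys), in early remission (0.66, n = 8) and in late remission after triple therapy (0.59, n = 6), where all 10 pairs were positive in each group. The mean was lower after TACI-Ig (0.26, n = 5, 7 of 10 pairs positive) and in NZM2410 kidneys (0.29, n = 6, 6 of 10 positive). In NZM2410 kidneys the pairs that were not positive were those with Fdft1 (r from -0.50 to -0.16). The pairs without Fdft1 ran from 0.38 to 0.90 there. After TACI-Ig the negative pairs were Fdft1 with Lss, Fdft1 with Insig1 (-0.31) and Sqle with Lss (-0.05). Whether the groups differ in co-variation was not tested. Within single groups, the highest r were Fdft1 with Insig1 in late remission after triple therapy (r = 0.97, two-sided exact permutation p = 0.00694, 0.0694 adjusted over 40 tests) and Lss with Insig1 after TACI-Ig (r = 0.93, n = 5, not tested). The latter group also held the lowest, Fdft1 with Lss at -0.64.

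To rank kidneys and genes, each member's deviation from its group mean was divided by its SD over kidneys, and the mean of the 5 was taken as a score. The lowest score was that of early-remission replicate 2 (-2.14), and the highest that of 30-week replicate 5 (1.64), followed by TACI-Ig replicate 4 (1.20) and late triple therapy replicate 11 (1.11). Early-remission replicate 2 was the lowest kidney of its group in each of the 5 members, with 8.59 for Sqle, 8.47 for Fdft1, 7.64 for Lss, 6.99 for Insig1 and 7.92 for Srebf2. The 30-week replicate 5 was the highest kidney of its group in each, with 9.77, 8.73, 8.36, 8.005 and 8.57 in the same order. Without early-remission replicate 2 the mean r of the pairs was 0.45, with 4 of 10 pairs above 0.5 (2.96% of all pairs), and without both kidneys it was 0.38, again with 4 of 10 above 0.5 (3.17% of all pairs).

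Each member was also set against the score of the other 4. Insig1 gave r = 0.80 and Srebf2 r = 0.75, each at place 9 among 15776 genes. Lss gave r = 0.66 (place 56), Sqle r = 0.65 (place 89) and Fdft1 r = 0.46 (place 828). Squalene synthase thus followed the rest least closely.

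Of all brighter genes outside the set, the 10 most like the score over 32 kidneys were Msmo1 (r = 0.89), Fads1 (0.88), Srebf1 (0.85), Mvd (0.83), Evc (0.81), Scd2 (0.81), Fasn (0.78), Ckb (0.78), Mapkap1 (0.78) and Tuba4a (0.77). In all, 6 of the 10 belong to lipid synthesis lists. Msmo1 and Mvd, the mevalonate diphosphate decarboxylase, are sterol enzymes, while Fasn (fatty acid synthase), Scd2 and Fads1 (desaturases) and Srebf1 belong to fatty acid synthesis and its control. Msmo1 ranged from 7.60 in early-remission replicate 2 to 9.69 in early-remission replicate 6. Without early-remission replicate 2, r was 0.84 for Msmo1, 0.85 for Fads1, 0.80 for Srebf1 and 0.76 for Mvd. Within single groups, r of Msmo1 to the score ran from 0.78 to 0.95.

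The 10 genes most opposed to the score, named after their values were seen, were among 227 genes with r below -0.5 (1.44% of all) and were led by Vnn1 (r = -0.84), which codes for the pantetheinase vanin 1, Decr1 (-0.76) and Ech1 (-0.72). Decr1 and Ech1, with Cpt2 (-0.69) and Cpt1a (-0.69), code for enzymes that carry long fatty acids into mitochondria or help to oxidise them there. Vnn1 was 11.18 in early-remission replicate 2 and between 8.69 and 9.03 in the other 7 early kidneys, and Ech1 was 13.14 there and between 12.03 and 12.27 in the others. Without that kidney r was -0.77 for Vnn1, -0.66 for Decr1, -0.58 for Ech1, -0.57 for Cpt2 and -0.60 for Cpt1a, and 1.29% of all genes had r below -0.5 (1.37% without 30-week replicate 5 as well). The others were Ypel5, Slitrk3, Sh3rf3, Pttg1 and Cish, with r between -0.71 and -0.68. Within single groups r ran from -0.98 to -0.47 for Vnn1, from -0.94 to -0.36 for Decr1 and from -0.93 to 0.18 for Ech1. For Cpt2 it ran from -0.89 to -0.16 and for Cpt1a from -0.82 to -0.13. Pttg1 was the most even of the 10, with r from -0.89 to -0.62. The weakest value was in NZM2410 kidneys for Vnn1, Decr1 and Ech1 and in late triple therapy for Cpt2 and Cpt1a. Some genes most like the score were uneven as well, such as Mvd (0.40 to 0.99) and Mapkap1 (0.38 to 0.92), and Msmo1 was the most even of those.

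**Figure D4:**
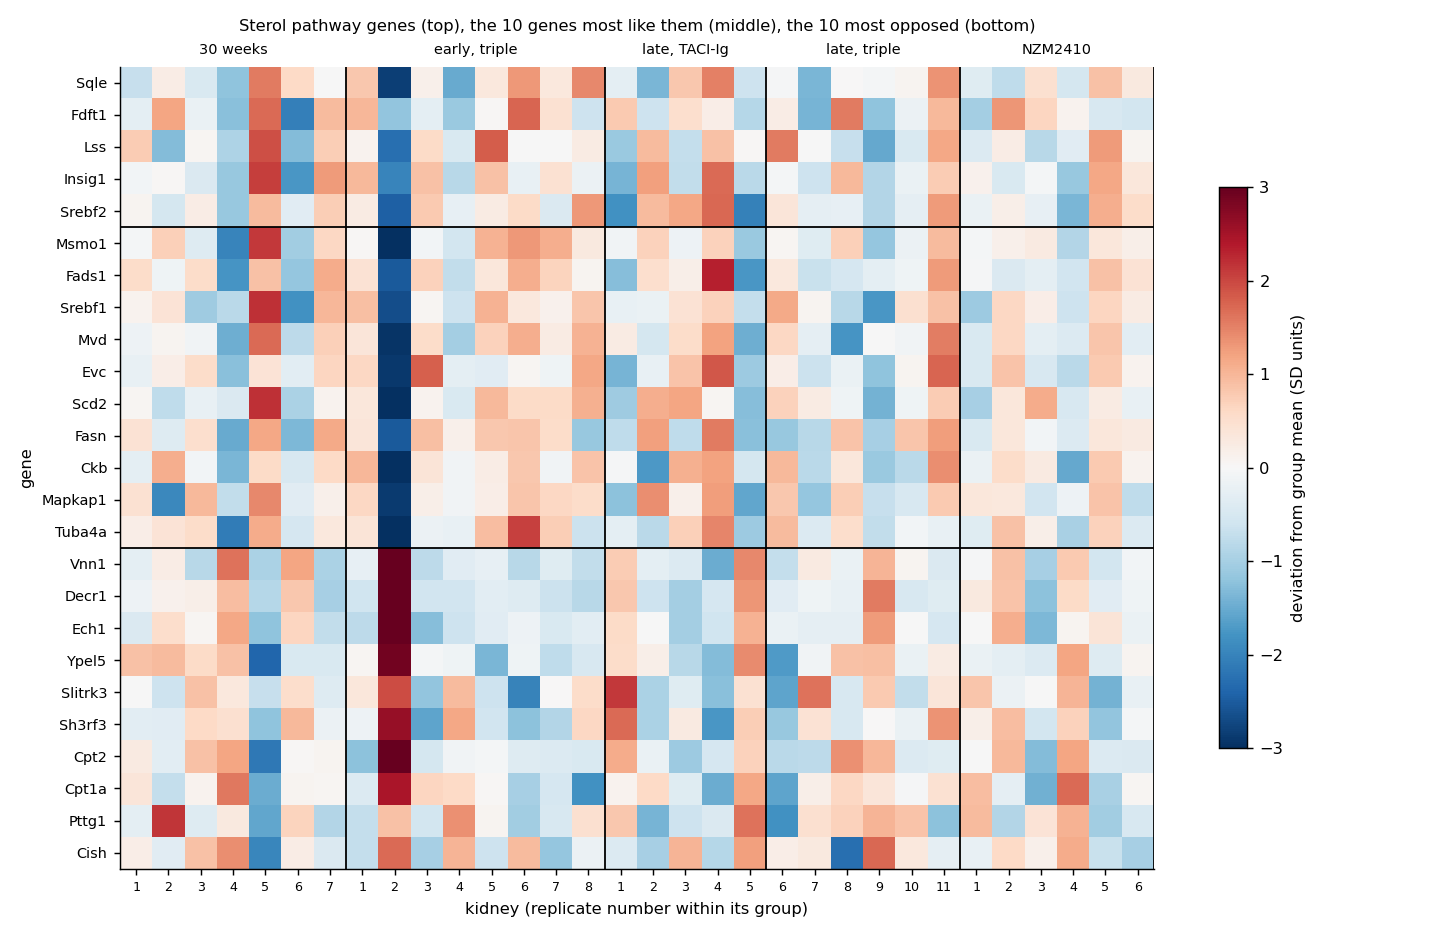
Deviation from the group mean, in SD units (colour, blue below and red above the mean, limited to 3 SD either way), of the 5 measured genes (top rows), the 10 genes most like their score (middle) and the 10 most opposed (bottom) in each of 32 kidneys (columns, by group and replicate number). Early-remission replicate 2 is blue in the upper blocks and red in the lower, and 30-week replicate 5 shows the opposite.

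By list, the likeness to the score was strongest for the other sterol enzymes, where 6 of 12 genes had r above 0.5 and the list mean gave r = 0.87, compared with 3.14% of all genes above 0.5. Fatty acid synthesis followed with 5 of 12 genes (list mean r = 0.79) and SREBP processing and relatives with 2 of 7 (Srebf1 and Stard4; list mean r = 0.77). The rest of that last list had r between -0.30 and 0.46. A list mean takes unscaled deviations, so genes that vary more weigh more in it. Without early-remission replicate 2 the counts were 8 of 12, 4 of 12 and 2 of 7, compared with 2.49% of all genes. Without 30-week replicate 5 as well they were 4 of 12, 3 of 12 and 2 of 7, compared with 3.56%. The list means gave r of 0.81, 0.72 and 0.67 without the first kidney and 0.76, 0.69 and 0.59 without both. Cyp51, Ebp, Hsd17b7 and Lbr, which are also sterol enzymes, had r between -0.12 and 0.20. Enzymes that branch from the pathway to isoprenoids (0 of 6 above 0.5), genes of LXR and cholesterol efflux (1 of 6, Lpcat3) and genes of cholesterol uptake, storage and transport (0 of 8) had list mean r of 0.12, -0.18 and 0.08.

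Markers of other tissue and of nephron segments were set beside the score in the same way. Adrenal tissue and fat can adhere to a whole kidney, and both use or store cholesterol. The adrenal cortex genes varied from 5.41 to 8.47 between 30-week kidneys, and their mean gave r = -0.21 with the score. With the adrenal mean removed by regression, the mean r of the member pairs was 0.52. Adrenal medulla and fat genes gave r of -0.19 and 0.02, macrophage genes -0.29, lymphocyte genes -0.35, proliferation genes -0.31 and podocyte genes 0.11. Proximal tubule genes gave 0.31, and genes of the loop, distal tubule and collecting duct gave 0.58, or 0.37 without the 2 kidneys farthest from the median, with 0 of 5 single genes above 0.5. With the mean of that list removed, the mean r of the member pairs was 0.42. Circadian clock genes were split, with Arntl (0.53) and Clock (0.52), named after their values were seen, on one side and Dbp (-0.44) and Nr1d2 (-0.42) on the other, and without early-remission replicate 2 none of the 10 exceeded 0.5. The labels give no time of harvest, and the part of tubule content or harvest time in the co-variation was not tested.

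**Figure D5:**
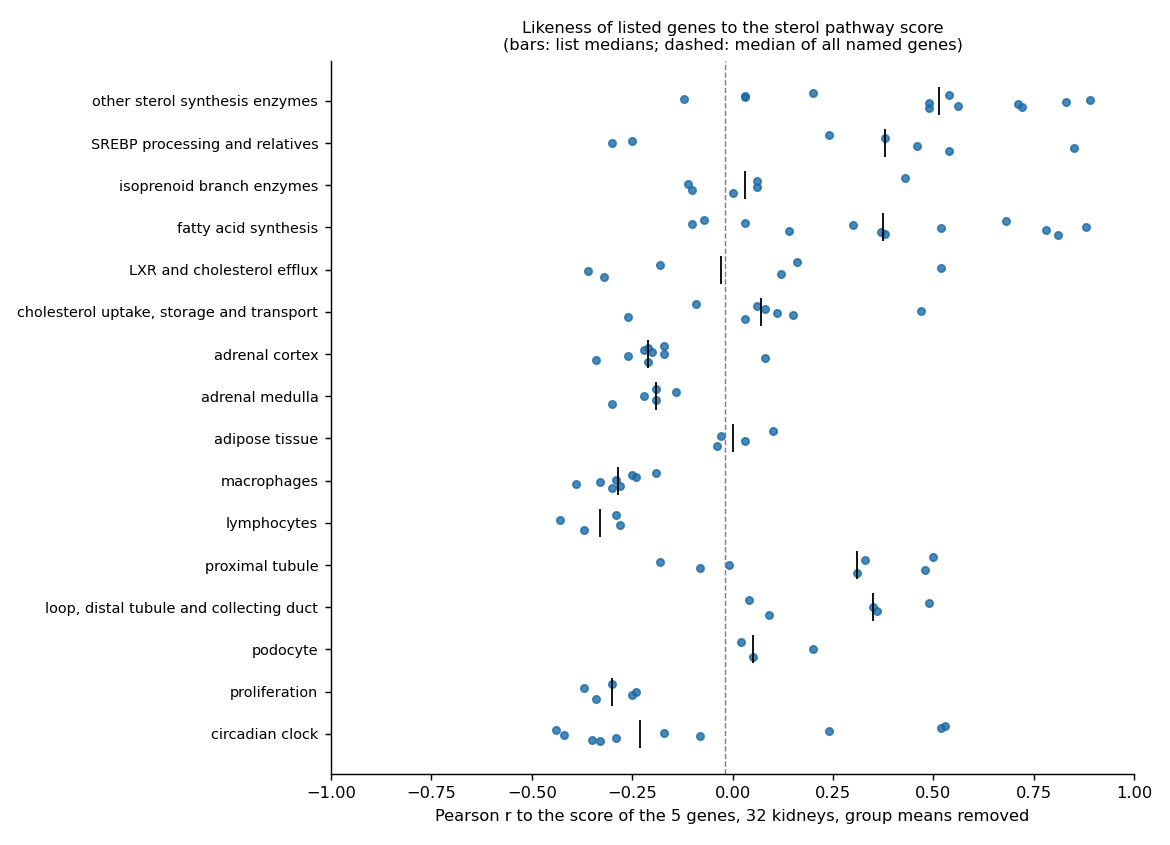
Pearson r to the score of the 5 genes over 32 kidneys with group means removed (x axis) for each measured gene of 16 lists (y axis), with points for genes, bars for list medians and a dashed line for the median of all named genes (-0.02). Genes above 0.5 are concentrated in the sterol enzyme (6 of 12) and fatty acid synthesis (5 of 12) lists.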

How the data were processed

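RNA of whole kidneys was measured on Affymetrix arrays. The deposited values are log2 expression values that the authors made with RMA (no version is given), with arrays normalized and batch-corrected together in batches that are not named. Of 16539 probe sets, 15780 had 1 gene name and were tested, 64 were controls and 695 had no single gene name. Groups were taken from the sample labels, and array medians ran from 7.02 to 7.16. No value column was without a sample. The labels describe each sample as a separate kidney, and 1 mouse code appears in the names of both 30-week replicate 6 and early-remission replicate 1. The number of arrays limits the precision.

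For every comparison a separate model of its groups was fitted (limma 3.58.1, R 4.3.3; lmFit and eBayes, Benjamini-Hochberg over all named genes, threshold 0.05). The study's SAM test was not run. Correlations used values with group means removed and two-sided permutation of kidneys within groups (100000 draws, or all orders within a group; numpy 2.4.6, Python 3.11.15). Promoter windows came from RefSeq (GRCm38.p6). Members were matched to probe sets by gene symbol, and the positions of 5 of 5 measured members were found in RefSeq by Entrez number. The fit was tested on simulated data.

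Genes named are the members, listed genes past the threshold (the 10 with the largest difference in a comparison), markers beside a result and the 10 most like the score; exceptions are marked. Members and lists were chosen with earlier results of these data known, so p values of the members are not independent evidence. Alternatives were a joint fit, quantile normalization again, median centring, genes with a mean below 6.07 left out, array weights, a trend with a robust prior, the replicate number as a block, the adrenal mean as covariate, mouse names, and each kidney left out. Removing the means of mouse-name letters or the loop and distal tubule genes, and leaving out kidneys with extreme scores or raised inflammatory genes, were added after the data were seen.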

Additional observations from a re-analysis of the deposited data

Results flagged for a closer look

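Of 25 combinations of a member and a group, 1 had a kidney whose gap to the rest exceeded Dixon's 95% limit, which chance exceeds in about 1 of 20. Srebf2 in early-remission replicate 2 was 7.92, and the other 7 early kidneys lay between 8.39 and 8.80. The same kidney was the lowest of its group in the other 4 members.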

How the results depend on the processing

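Of the member differences under alternatives other than leaving out a kidney, 235 kept their direction and their side of the threshold, 8 changed sign and 2 newly passed. Those that changed sign were never called: Srebf2 after TACI-Ig against 30 weeks (0.042 with array weights), Sqle (-0.22) and Lss (0.19) in late triple therapy against 30 weeks with the replicate block, Sqle (0.19 with the adrenal covariate) and Srebf2 (-0.059 with array weights) between the late-remission groups, and Srebf2 in NZM2410 against TACI-Ig (-0.042 after quantile normalization, -0.011 after median centring, -0.12 with the adrenal covariate). With array weights Insig1 was called in late against early remission (-0.78, limma adjusted p = 0.0389), making 1 member called, and in NZM2410 against TACI-Ig (0.59, limma adjusted p = 0.0282), making 2. Counts of called genes moved more. Early remission against 30 weeks gave 3 in the joint fit and 123 with array weights. TACI-Ig against 30 weeks gave 1 with the replicate block. Late against early remission gave 1 in the joint fit, 0 after quantile normalization, 65 with array weights, 7 with the trend and robust prior, 7 with the adrenal covariate and 1 with the replicate block. Between the late-remission groups 0 genes were called in the joint fit and 0 with the adrenal covariate. NZM2410 against TACI-Ig gave 5368 without the genes under a mean of 6.07, which tests fewer genes, with 3650 higher and 1718 lower, and median centring gave 3563 higher and 5613 lower. The cause of the other changes was not tested.

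Leaving out each kidney gave the following ranges of called genes: 0 to 12 for early remission against 30 weeks (12 without 30-week replicate 2 and 10 without early replicate 8), 0 to 1309 for TACI-Ig against 30 weeks (1309 without TACI-Ig replicate 2 and 4 without 30-week replicate 7), 0 to 0 for late triple therapy against 30 weeks, 0 to 32 for late against early remission (32 without late replicate 8, 30 without early replicate 8, 27 without early replicate 2, 13 without early replicate 1, 4 without late replicate 11 and 0 without any of the others), 10 to 13 between the late-remission groups and 8810 to 9565 for NZM2410 against TACI-Ig. Members called ranged from 0 to 1 in late against early remission, from 1 to 2 in NZM2410 against TACI-Ig and were 0 in the others. Some member differences near 0 changed sign. Against 30 weeks, Srebf2 ranged from -0.132 to 0.086 after TACI-Ig, and after triple therapy Sqle ranged from -0.01 to 0.152, Lss from -0.092 to 0.039, Insig1 from -0.197 to 0.051 and Srebf2 from -0.072 to 0.028. Sqle ranged from -0.192 to 0.011 in late against early remission. Between the late-remission groups Sqle ranged from -0.207 to 0.01, Lss from -0.017 to 0.111, Insig1 from -0.002 to 0.3 and Srebf2 from -0.098 to 0.12. Srebf2 ranged from -0.062 to 0.155 in NZM2410 against TACI-Ig. The mean r of the member pairs was between 0.45 and 0.57 with each kidney left out, between 0.49 and 0.54 under the other alternatives chosen earlier, and between 0.38 and 0.56 under those added later. Without both kidneys with the most extreme scores, r moved to 0.11 for Sqle with Lss and to 0.51 for Sqle with Srebf2.

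The main fits did not pair kidneys by replicate number, and the correlations of same-numbered kidneys cannot settle whether they pair. The lowest of these was below 0 in each comparison (-0.71 to -0.09). The highest was 0.34, in early remission against 30 weeks, where 2 of 7 kidneys matched their own number best. In the other comparisons with shared numbers the highest was 0.13 and 0 kidneys did so. The late-remission groups share no replicate number. No paired analysis was possible because of this for those 2 groups. In the others the replicate block called no member that was not called without it and lost none.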
